A study of Oryza sativa with 12 samples.

Results

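JAMYB, WRKY62, NH3 and Pir7b are 4 rice genes linked to the response to pathogens, and their transcripts were followed here in leaves of well-watered and drought-stressed plants. Every probe set matched to 1 of the 4 genes was taken, which gave 7 of the 32012 probe sets tested and 4 of the 17905 genes measured. JAMYB, WRKY62 and Pir7b had 1 probe set each and NH3 had 4. The genes had been chosen on their changes with drought in each genotype and on the difference between the genotypes under drought in these same arrays, so their values are given as descriptions with standard errors and without tests. JAMYB transcript stood at its lowest in well-watered osnox2 leaves and was 4.02-fold higher there under drought. WRKY62 and NH3 were higher on every drought array than on every control array of the same genotype. Pir7b was higher in osnox2 than in WT leaves under both conditions, 3.34-fold in well-watered plants and 7.27-fold under drought. Its WT signals were faint, so the sizes of these folds are uncertain.

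Plant immunity is organised around receptors that sense pathogens and the hormones salicylate and jasmonate, which relay the signal to transcription factors and then to enzymes and antimicrobial products. JAMYB is a MYB transcription factor of rice whose transcript responds to jasmonate and to the blast fungus. WRKY62 is a WRKY transcription factor known in rice as a negative regulator of basal and receptor-mediated resistance to bacterial blight. NH3 is a rice homologue of NPR1, the salicylate-responsive coactivator of defence genes in Arabidopsis. Pir7b is an esterase of the alpha/beta hydrolase fold whose transcript is induced in rice by a non-host bacterium, and it is thus an enzyme rather than a regulator.

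The plants were Oryza sativa of 2.5 months, either wild type (WT) or the T-DNA insertion mutant osnox2, and the study's title names its subject as OsRbohA, a plasma membrane NADPH oxidase that makes superoxide at the cell surface. Control leaves were taken at day 0 of the treatment (soil moisture 47.3 ± 1.9%) and drought leaves at day 15 (8.5 ± 2.1%), from pairs of WT and osnox2 plants that shared a pot. Time and drought therefore cannot be told apart. Total RNA from the youngest fully expanded leaves was labelled with biotin and hybridised to 12 Affymetrix arrays, 3 for each genotype in each condition. The labels call the arrays biological replicates without saying how many plants or independent insertion lines stood behind them. The annotation used here gives no gene the name OsRbohA, so the disrupted gene itself was not checked.

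All values below are log2 of the MAS5 signal, and differences are log2 differences of group means ± SE from 1 fit to all arrays with n = 3 per group. The median log2 signal of an array lay between 5.08 and 5.43, and the 7 probe sets of the 4 genes were above it on all 12 arrays. The 5 leaf marker genes found by name (such as RBCS and RCA of carbon fixation) were above every array's median. Of 8 floral genes found, 3 were below it on every array and 2 above it. Of 4 root genes, 1 (LSI2) was below it on every array and 2 (LSI1 and PHT1-8) above it. A set of 3 control arrays, namely replicates 1 and 2 of osnox2 control and replicate 1 of WT control, stood apart from the other 9, with correlations of 0.868 to 0.895 with them against 0.932 to 0.954 among themselves. The clock gene LHY read 13.51 to 13.79 on these 3 arrays and 7.31 to 8.99 on the other 9. The comparisons of the 4 genes with a control group are therefore also given without them, as are the list medians and the values of most related genes. This leaves 2 WT control arrays and 1 osnox2 control array, and the SE of a difference from that lone array assumes that it varies like the arrays of the other groups.

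In the RefSeq annotation of assembly ASM3414082v1, JAMYB (LOC4351131) lies on chromosome 11 from 29632140 to 29635153, with 7618 and 8973 bases to the nearest genes on either side. WRKY62 (LOC4347070) lies on chromosome 9 from 19370825 to 19372913. NH3 (LOC4333666, also listed there as NPR3) lies on chromosome 3 from 27128883 to 27134865 and shares 476 bases with the protein-coding gene LOC107280463. Pir7b (LOC4326788) lies on chromosome 1 from 41648462 to 41650250, shares 529 bases with the non-coding gene LOC4326785 and at its start coordinate lies 587 bases from LOC4326787. No probe set matched LOC107280463 or LOC4326785, so transcripts of those genes cannot be told apart from NH3 and Pir7b wherever a probe lies in the shared stretch.

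JAMYB was the gene of the 4 whose well-watered level was lower in osnox2 than in WT without overlap. In WT control leaves it read 8.73, 8.99 and 8.09, and in WT drought leaves 8.91, 8.74 and 9.21. In osnox2 it read 7.16, 6.78 and 7.54 under control conditions and 9.0, 9.64 and 8.85 under drought. All 3 osnox2 control arrays were below all 9 others, and the ranges of the other 3 groups overlapped one another. The order of the group means was thus osnox2 control (7.16 ± 0.38 SD), WT control (8.60 ± 0.46), WT drought (8.95 ± 0.24) and osnox2 drought (9.17 ± 0.42), of which the last 3 did not differ beyond their spread. Drought minus control was 0.35 ± 0.30 in WT and 2.01 ± 0.30 in osnox2, and osnox2 minus WT was -1.44 ± 0.30 under control and 0.22 ± 0.30 under drought. Without the 3 arrays the drought difference in osnox2 was 1.62 ± 0.40, and the control difference of -0.997 ± 0.421 then rested on a single osnox2 array at 7.54 against WT arrays at 8.99 and 8.09. In whole-leaf RNA, less transcript per cell and fewer cells that carry it cannot be told apart, here and for the genes below.

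With all 12 arrays WRKY62 had the largest drought differences of the 4 genes in either genotype. It read 8.07, 9.18 and 8.76 in WT control leaves and 10.29, 10.97 and 10.97 in WT drought leaves. It read 8.65, 7.91 and 10.42 in osnox2 control leaves and 11.14, 11.64 and 11.43 in osnox2 drought leaves. Within each genotype every drought array was above every control array, and every osnox2 drought array was above every WT drought array. Replicate 3 of osnox2 control lay above the other control arrays and inside the range of WT drought. Drought minus control was 2.07 ± 0.53 in WT (4.21-fold) and 2.41 ± 0.53 in osnox2 (5.32-fold). The genotypes differed by 0.32 ± 0.53 under control and by 0.66 ± 0.53 under drought. Without the 3 control arrays that stood apart the control difference was 1.44, and it then rested on the single osnox2 control array at 10.42.

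The 3 arrays that stood apart were the 3 lowest for WRKY62, at 7.91 to 8.65 against 8.76 to 10.42 on the other 3 control arrays. Without them the drought difference was 1.77 ± 0.24 in WT and 0.99 ± 0.30 in osnox2, and the difference between the 2 responses turned from 0.34 ± 0.75 to -0.79 ± 0.39. In osnox2 the value of WRKY62 was then below those of JAMYB (1.62) and of 3 of the 4 NH3 probe sets (1.18 to 1.56). Without osnox2 control replicate 3 instead, the difference in osnox2 was 3.12. The direction of the drought difference was the same with and without these arrays, but its size in osnox2 depended on which control arrays were used.

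**Figure D1:**
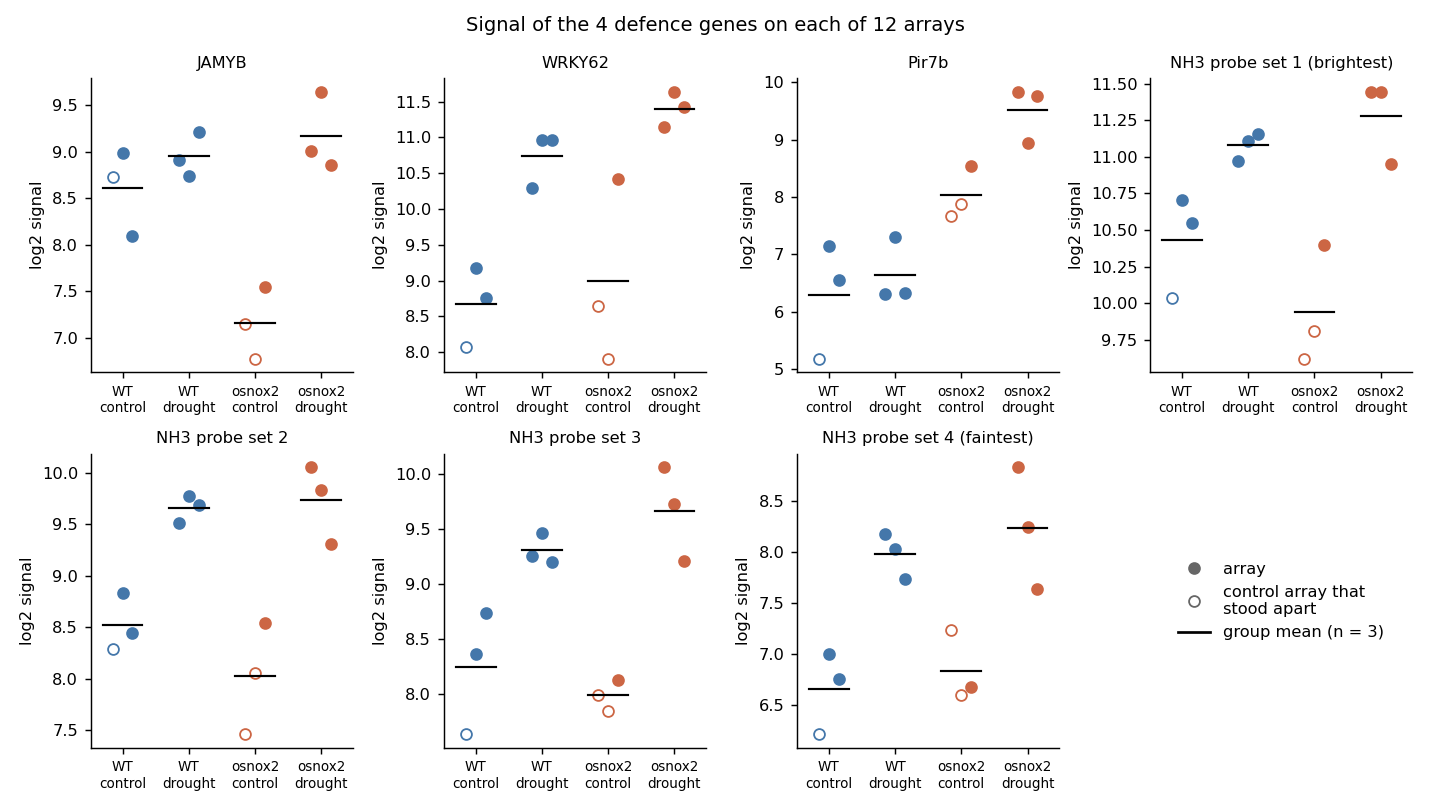
Log2 MAS5 signal (vertical axis) of the 7 probe sets of JAMYB, WRKY62, Pir7b and NH3 on each of the 12 arrays, by group along the horizontal axis. Blue points are WT and orange points osnox2 arrays, open points are the 3 control arrays that stood apart, and lines are group means of 3 arrays. JAMYB is lowest in osnox2 control, WRKY62 and all 4 NH3 probe sets are higher under drought in both genotypes, and Pir7b is higher in osnox2 than in WT.

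WRKY76, another WRKY factor of the same subgroup and known in rice as a repressor of defence genes, is the next gene to WRKY62 on chromosome 9 (19354351 to 19355754), 15070 bases away with 0 annotated genes between. It read 9.03, 9.80 and 9.43 in WT control leaves and 10.34, 11.96 and 11.13 in WT drought leaves. In osnox2 it read 9.61, 9.57 and 11.79 under control and 11.99, 11.95 and 11.96 under drought. Its drought and control arrays did not overlap in either genotype, and replicate 3 of osnox2 control was again high. Drought minus control was 1.73 ± 0.56 in WT (limma, adjusted p = 0.288) and 1.65 ± 0.56 in the mutant (adjusted p = 0.189), so neither passed the threshold of 0.05. Without the 3 arrays the values were 1.53 ± 0.38 and 0.18 ± 0.48. Without osnox2 control replicate 3, which leaves only control arrays that stood apart in osnox2, the second was 2.38 ± 0.38 and passed. The gene on the other side of WRKY62, CIPK16, 14207 bases away, had drought differences of 0.66 ± 0.34 (adjusted p = 0.540) and 0.74 ± 0.34 (adjusted p = 0.288).

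Across the 12 arrays WRKY76 was the second most similar of the 2115 named genes compared with WRKY62 (Pearson r = 0.939), after OsCASPL5B2 (0.943). The arrays share the same groups and the same 3 arrays that stood apart, so these values describe the pattern only. Over the 9 arrays left without those 3, neither gene was among the 5 most similar. The other WRKY factors found by name had lower drought differences in WT, and none passed. WRKY71, also of that subgroup, had drought differences on its brighter probe set of 0.28 ± 0.59 in WT (adjusted p = 0.914) and 1.55 ± 0.59 in the mutant (adjusted p = 0.219; 0.31 ± 0.71 without the 3 arrays). WRKY24 had -1.19 ± 0.52 in WT (adjusted p = 0.446) and 0.05 ± 0.52 in the mutant (adjusted p = 0.968), where it was -0.66 ± 0.73 without the 3 arrays. WRKY9 and WRKY51 lay between -0.06 and 0.23 in both.

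**Figure D2:**
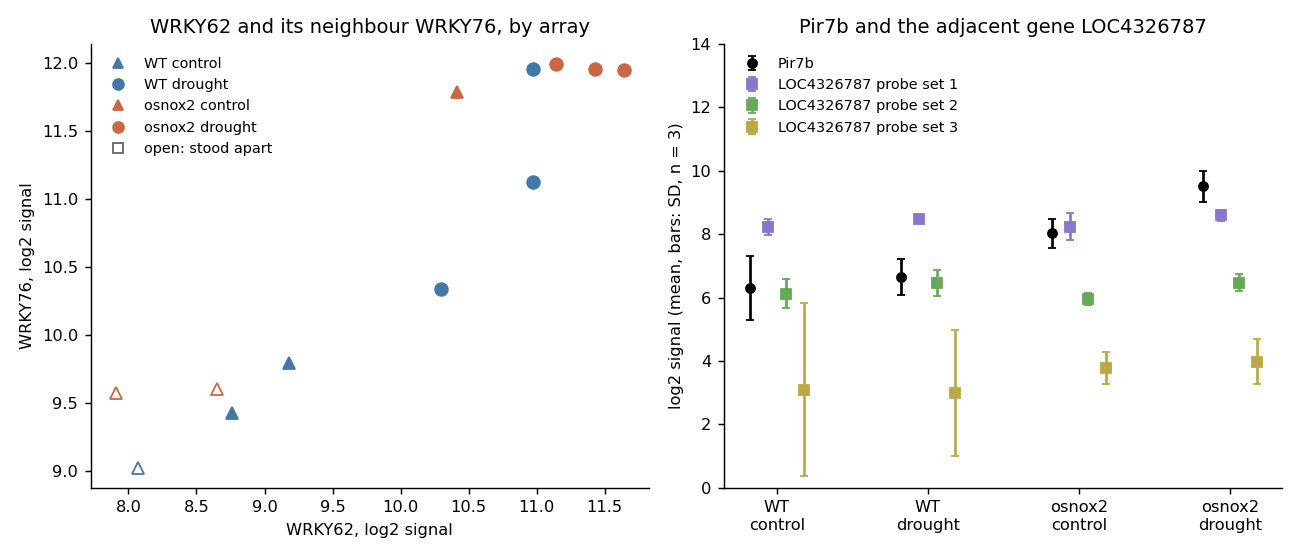
Left, log2 signal of WRKY76 (vertical axis) against WRKY62 (horizontal axis), 1 point per array, with triangles for control, circles for drought and open triangles for the 3 arrays that stood apart. Right, mean log2 signal ± SD of 3 arrays per group for Pir7b and the 3 probe sets of the adjacent gene LOC4326787. The osnox2 control array that did not stand apart lies near the drought arrays at left, and at right the Pir7b means go from 6.29 to 9.51 while those of the neighbour's brightest probe set stay between 8.23 and 8.59.

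NH3 was higher under drought in both genotypes on each of its 4 probe sets. On the brightest it read 10.04, 10.71 and 10.55 in WT control leaves and 10.97, 11.11 and 11.15 in WT drought leaves. In osnox2 it read 9.62, 9.81 and 10.40 under control and 11.45, 11.44 and 10.95 under drought. The 2 control groups overlapped, the 2 drought groups overlapped, and every drought array was above every control array. Drought minus control was 0.65 ± 0.23 in WT and 1.34 ± 0.23 in osnox2. On the other 3 probe sets it was 1.06 to 1.32 in WT and 1.40 to 1.71 in osnox2, also without overlap. The genotypes overlapped in each condition on all 4 probe sets, with osnox2 minus WT between -0.50 and 0.18 under control and between 0.07 and 0.36 under drought.

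The 4 NH3 probe sets differed in brightness by 2.38 to 3.82 on a given array, which sets no levels against each other since each has its own probes. Their values correlated with r from 0.808 to 0.975 over the 12 arrays in the 6 pairs. Of these, 1 carries the suffix that Affymetrix gives to probe sets with probes shared with other sequences (x), and the second brightest and the faintest carry the suffix for several transcripts of the same gene (a). The faintest had group means of 6.66 in WT control, 7.98 in WT drought, 6.84 in osnox2 control and 8.24 in osnox2 drought. On 3 of the 4 probe sets the 3 arrays that stood apart were lower than the other 3 control arrays. Without them the difference on the brightest was 0.45 ± 0.16 in WT and 0.88 ± 0.20 in osnox2, and all 4 probe sets kept a difference above 0 in both genotypes. Under control, osnox2 minus WT then lay between -0.42 and -0.09 on the 4 probe sets, with 1 osnox2 control array left.

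None of the other NPR1 homologues found by name passed the test. NH1, the best-studied rice homologue and a positive regulator of resistance, had drought differences of -0.27 ± 0.28 in WT (adjusted p = 0.795) and 0.28 ± 0.28 in the mutant (adjusted p = 0.636). Leaving out the 3 arrays gave -0.54 ± 0.25 and 0.06 ± 0.32. NH2 had 0.30 ± 0.10 in WT (adjusted p = 0.338) and 0.36 ± 0.10 in the mutant (adjusted p = 0.149), and its groups did not overlap in either. The gene named NPR4 had 0.63 ± 0.52 in WT (adjusted p = 0.727) and 1.82 ± 0.52 in the mutant (adjusted p = 0.139; 0.99 ± 0.70 without the 3 arrays). NH4 had -0.69 ± 0.44 (adjusted p = 0.624) and -1.15 ± 0.44 (adjusted p = 0.218). TGA2.1, of the bZIP factors to which NPR1 proteins bind, had -0.41 ± 0.14 (adjusted p = 0.327) and -0.61 ± 0.14 (adjusted p = 0.0911), with drought arrays below control arrays in both genotypes. NH2, NH4 and TGA2.1 kept their signs without the 3 arrays, at 0.21, -0.75 and -0.28 in WT and 0.26, -0.89 and -0.49 in the mutant. Without osnox2 control replicate 3, NH2, NPR4, TGA2.1, WRKY71 and the pathogenesis-related gene PBZ1 passed in osnox2, at 0.40, 2.23, -0.67, 2.17 and 1.25, each set against the 2 osnox2 control arrays that stood apart.

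Pir7b was the gene whose level followed genotype in both conditions. It read 5.18, 7.14 and 6.55 in WT control leaves and 6.32, 7.30 and 6.33 in WT drought leaves. It read 7.67, 7.88 and 8.55 in osnox2 control leaves and 9.83, 8.94 and 9.75 in osnox2 drought leaves. All 6 osnox2 arrays were above all 6 WT arrays, and within osnox2 every drought array was above every control array. The WT groups overlapped, and the first WT control array was the lowest of all 12. The group means in order were WT control (6.29 ± 1.01 SD), WT drought (6.65 ± 0.56), osnox2 control (8.03 ± 0.46) and osnox2 drought (9.51 ± 0.49).

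For Pir7b, osnox2 minus WT was 1.74 ± 0.49 under control and 2.86 ± 0.49 under drought. For the second, 64 of the probe sets tested (0.2%) had a higher difference. The gene was chosen in part on that value, so nothing is read from this share. Drought minus control was 0.35 ± 0.49 in WT and 1.48 ± 0.49 in osnox2, and the difference between these responses was 1.12 ± 0.70. Without the 3 arrays osnox2 minus WT under control was 1.70 ± 0.52, close to its value with them, and the drought difference was 0.96 ± 0.49 in osnox2. In WT it turned to -0.20 ± 0.39, since the lowest WT control array was among those left out. The genotype difference under drought uses no control array.

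In the gene adjacent to Pir7b the genotype differences were near 0 and did not pass. LOC4326787, whose probe sets come from the same sequence cluster of the array, had osnox2 minus WT of 0.01 ± 0.23 under control (adjusted p = 0.994) and 0.10 ± 0.23 under drought (adjusted p = 1.0) on its brightest probe set. On the next the values were -0.18 ± 0.32 (adjusted p = 0.897) and 0.03 ± 0.32 (adjusted p = 1.0). Its faintest probe set did not pass the filter on dim probe sets. Among the named genes, AOX1, the alternative oxidase of the mitochondrial electron chain, was the most similar to Pir7b over the 12 arrays (r = 0.932) and over the 9 without the 3 (0.931), followed by AldC-1 (0.900 and 0.911). CCAMK, BIO1 and HAP2A came next over 12 arrays, at 0.864 to 0.841. The arrays share the genotypes and conditions, so this again describes the pattern only.

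Set side by side, the 4 genes showed 3 patterns. All 7 probe sets had osnox2 drought arrays above all osnox2 control arrays, while 14.5% of all probe sets tested did so. In WT 5 of the 7 did, those of WRKY62 and NH3, where 9.92% of all did. Under drought, 2 of the 7 (WRKY62 and Pir7b) were higher in osnox2 without overlap, against 8.26% of all. Under control 1 of the 7 was higher without overlap (Pir7b, 3.55% of all) and 1 lower (JAMYB, 4.92% of all). Because the genes were selected on the drought differences and the genotype difference under drought, nothing is read from these shares.

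**Figure D3:**
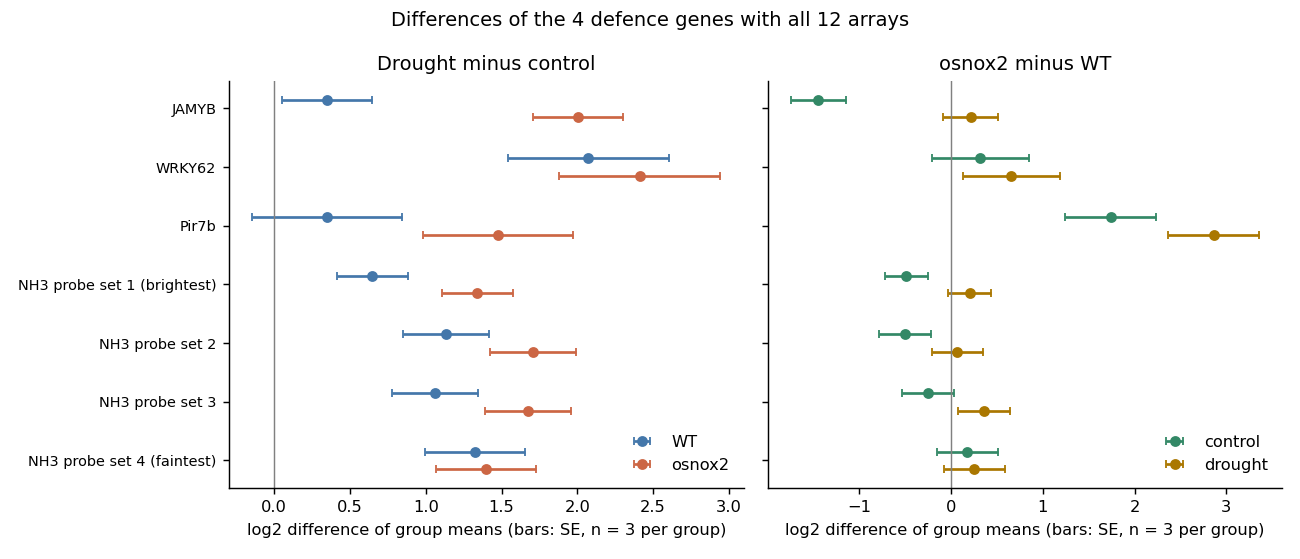
Log2 differences of group means with SE bars (horizontal axis, n = 3 arrays per group) for the 7 probe sets listed along the vertical axis, with all 12 arrays. Left, drought minus control in WT (blue) and osnox2 (orange), where the osnox2 values lie between 1.34 and 2.41. Right, osnox2 minus WT under control (green) and drought (ochre), where Pir7b reaches 2.86 and JAMYB under control lies at -1.44.

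**Figure D4:**
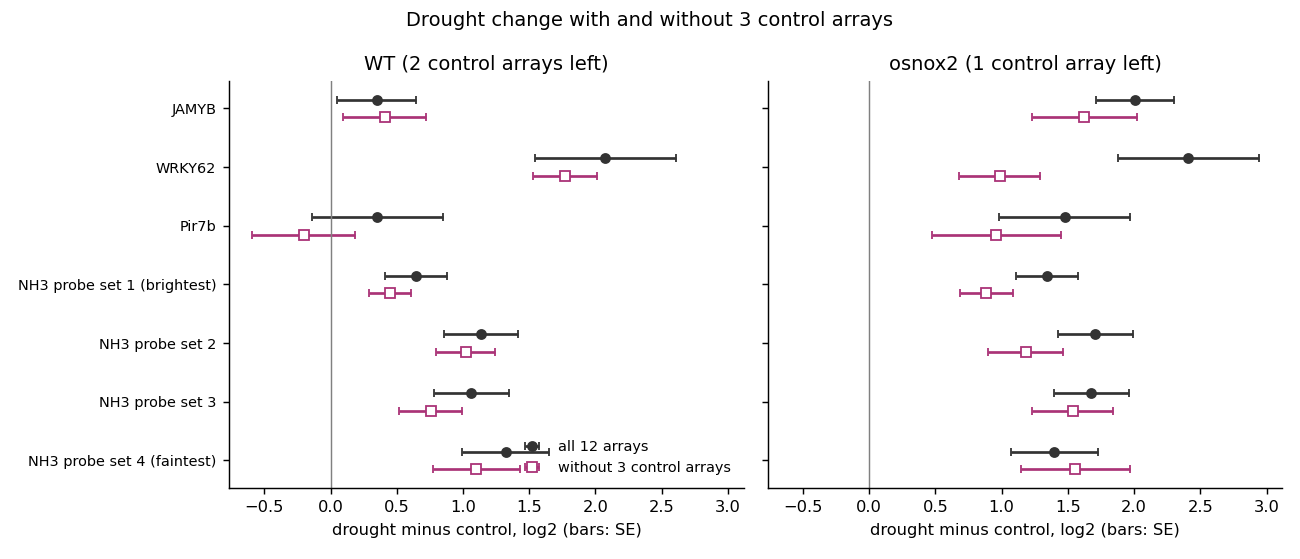
Drought minus control on the log2 scale with SE bars (horizontal axis) for the 7 probe sets along the vertical axis, in WT at left and osnox2 at right, with all 12 arrays (filled circles) and without the 3 control arrays that stood apart (open squares). In osnox2 all 7 values stay above 0 without these arrays, and that of WRKY62 goes from 2.41 to 0.99. In WT the value of Pir7b goes from 0.35 to -0.20.

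The genes most similar to JAMYB and NH3 changed when the 3 arrays were left out. Over the 12 arrays JAMYB was most similar to OrysaZxb (r = 0.953), PHY18 (0.903) and SODCC.2 (0.886), a cytosolic copper/zinc superoxide dismutase, followed by SDH3-2 and HSP16.9A. OrysaZxb was also among the 5 most similar over the 9 arrays (0.916). NH3 was most similar to OsTLP1 (0.966) and JAZ12 (0.957), the latter a repressor of jasmonate signalling, followed by ELP3, OC-XII and HAP3. None of these 5 was among the 5 most similar to NH3 over the 9 arrays.

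Other genes of the defence pathways were found through 8 lists by gene symbol: WRKY factors, NPR1 homologues and salicylate partners, jasmonate synthesis and signalling, other MYB factors, pathogenesis-related proteins, phytoalexin synthesis, receptors and kinases, and phenylalanine ammonia-lyases. They held 138 measured genes, of which 123 had a probe set tested. The list of receptors and kinases also took in resistance genes of other kinds, such as XA5, XA13 and SPL11. None of the 123 passed limma's test at an adjusted p under 0.05 for drought in WT, where 0.131% of all probe sets passed, or for drought in osnox2, where 0.531% passed. For drought in osnox2 the number was 35 without osnox2 control replicate 3, 11 without WT control replicate 1 and 7 without the 3 arrays that stood apart. None passed for the genotypes under drought (0.103% of all passed) or for the difference between the drought responses (0.0% of all). Without adjustment, 1075 of the 32012 probe sets had a p under 0.05 for that last difference. This share is smaller than the 0.05 that the threshold alone would let through, so nothing is read from it. In control leaves 1 passed, where 0.131% of all probe sets did, and this was JAZ2 (LOC4342421), a JAZ repressor of jasmonate signalling.

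JAZ2 was lower in well-watered osnox2 leaves. It read 9.32, 9.34 and 8.82 in WT control leaves and 6.15, 5.52 and 6.44 in osnox2 control leaves, a difference of -3.12 ± 0.44 (adjusted p = 0.0359). The groups lay far apart, and the call was lost without the 3 arrays, where the difference was -2.64 (adjusted p = 0.188). It was also lost when any single array among osnox2 control replicates 1 and 2, osnox2 drought replicate 2, WT control replicates 2 and 3 and WT drought replicates 2 and 3 was left out, with the replicate block, without the intensity trend and in a fit of only the groups compared. Under drought JAZ2 read 8.57, 9.72 and 9.79 in WT and 8.29, 7.41 and 6.74 in osnox2, a difference of -1.88 ± 0.44 (adjusted p = 0.293).

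Lists are further described by their medians. Over the 31 jasmonate genes tested the median drought difference was 0.60 in osnox2 and -0.15 in WT, beside medians over all probe sets of 0.08 and 0.02. In osnox2, 13 of the 31 (41.9%) had drought arrays above all control arrays, where 14.5% of all probe sets did, and 3 had them below. In WT these numbers were 0, where 9.92% of all did, and 2. The share of all probe sets with drought arrays below was not counted, so nothing is read from the numbers below. The highest in osnox2 were JAZ repressors, such as JAZ13 at 4.29 ± 1.32 (adjusted p = 0.160) and JAZ12 at 3.35 ± 0.63 (adjusted p = 0.0510). Without the 3 arrays these were 1.29 and 2.09, and the median of the list was 0.36 in osnox2 and -0.25 in WT. AOS2, an allene oxide synthase of jasmonate synthesis, had -0.83 ± 0.48 in WT (adjusted p = 0.583) and -1.41 ± 0.48 in the mutant (adjusted p = 0.192), and -0.39 ± 0.45 and -1.95 ± 0.56 without the 3 arrays.

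The 15 phytoalexin genes tested mostly encode diterpene synthases and cytochromes P450. Their median drought differences were 0.84 in WT and 0.71 in osnox2, and 0.27 and 0.66 without the 3 arrays. The 22 pathogenesis-related genes had medians of 0.37 and 0.25, and of 0.09 and 0.16 without the 3 arrays. This list takes genes by symbol, and the symbol TLP is used in rice for thaumatin-like and for tubby-like proteins alike. PBZ1, a pathogenesis-related protein of the PR10 family, had 0.64 ± 0.35 in WT (adjusted p = 0.566) and 1.04 ± 0.35 in the mutant (adjusted p = 0.191), and 0.24 ± 0.18 and 0.61 ± 0.23 without the 3 arrays. The 10 other MYB factors had medians of -0.28 and -0.30, and the 10 genes of the salicylate list -0.13 and 0.04. For the 28 genes of the mixed list of receptors and kinases they were 0.03 and 0.01. The 5 other WRKY factors had medians of -0.05 and 0.23, and the 2 phenylalanine ammonia-lyases -0.30 and 0.65. Leaving out the 3 arrays, these medians were, in the same order, -0.21 and -0.04, -0.03 and 0.07, 0.09 and 0.10, 0.13 and 0.27, and 0.32 and 1.74, so that those of the WRKY factors and the phenylalanine ammonia-lyases turned sign in WT. Over all 123 genes, 36 (29.3%) had osnox2 drought arrays above all osnox2 control arrays, beside 14.5% of all probe sets, and 10 had them below. In WT 6 (4.88%) had them above, beside 9.92% of all, and 10 below. For the genes below, the share over all probe sets was again not counted.

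**Figure D5:**
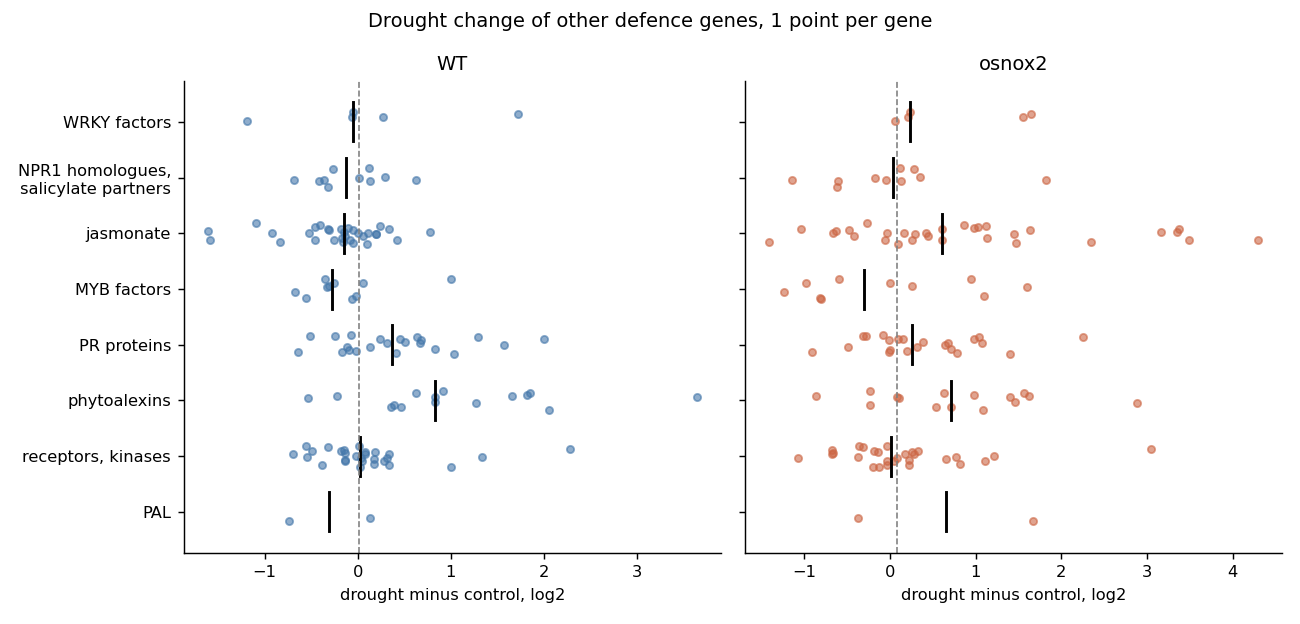
Drought minus control on the log2 scale (horizontal axis) for the genes of the 8 defence lists along the vertical axis, 1 point per gene, in WT at left and osnox2 at right. Black bars are list medians and the dashed line is the median of all probe sets tested, 0.02 in WT and 0.08 in osnox2. The jasmonate median lies at -0.15 in WT and at 0.60 in osnox2, and the phytoalexin median at 0.84 and 0.71.

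Without the 3 arrays a few list genes passed. In WT drought leaves the receptor kinase gene BAK1 (-0.68 ± 0.10, adjusted p = 0.0143), TLP13 (-0.73 ± 0.13, adjusted p = 0.0256) and the chitinase gene CHT2 (-1.42 ± 0.27, adjusted p = 0.0322) were lower than in control leaves. With all 12 arrays this CHT2 probe set had the other sign, at 0.67 in WT (adjusted p = 0.925) and 1.07 in the mutant (adjusted p = 0.756). In osnox2, with 1 control array left, whose spread had to be taken from the other groups, MAPK6 (LOC4339633), JAZ8 (LOC4347164), PAL (LOC4330034), CYP71Z6 and CYP701A8 were higher under drought, by 1.22 to 3.27, and TLP3 and CHT2 were lower. PAL passed on 1 of its 5 probe sets (2.81), and the other 4 lay between 0.42 and 0.89 (adjusted p = 0.619 to 0.880). The TLP3 probe set that passed, at -0.87, stood at 0.98 with all 12 arrays (adjusted p = 0.492). CYP71Z6 and CYP701A8 were also lower in osnox2 than in WT control leaves, by -1.95 and -1.54. The same single osnox2 control array thus entered both the drought and the genotype difference of each gene. With all 12 arrays these genotype differences were -0.15 (limma, adjusted p = 0.977) and -0.60 (adjusted p = 0.848). Under drought JAZ7 was higher in osnox2 than in WT by 0.70, a difference that uses no control array. With all 12 arrays it was the same, at 0.70 ± 0.19, and did not pass (limma, adjusted p = 0.439). Only the estimate of the spread differed between these fits.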

How the data were processed

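Per the submitters' processing notes the deposited log2 values were made with MAS5, for which no version is given, and the authors' table held 57258 probe sets. Values were used as deposited. The 64 control probe sets were left out, and 32012 of the other 57194, above their array's 50th percentile on at least 3 of 12 arrays, were tested. Probe sets were named through accessions in RefSeq's ASM3414082v1 annotation (22436 matched 1 gene, 95 several, 34663 none). Group means of the 4 groups were estimated from all 12 arrays in 1 linear model (limma 3.58.1 under R 4.3.3, lmFit and trended eBayes), with 5 two-sided contrasts with Benjamini-Hochberg adjustment over the probe sets tested. The median residual SD was 0.418 with 8 degrees of freedom, and precision is limited by how few arrays there are. The fit was tested on simulated data. The p-values measure the spread between these arrays.

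The 4 genes, the lists and the tests were chosen with earlier results of these data known. Text names every probe set of the 4 genes, the relatives written down with them (of which NH1, NH2, WRKY71, WRKY76, PBZ1 and AOS2 were found by name), up to 4 called genes per list, the 5 most similar named genes per member, and adjacent genes. WRKY9, WRKY24, WRKY51, NPR4, NH4, TGA2.1, JAZ12 and JAZ13 were named after their values were seen. The alternatives, each changing a single choice, were a filter at the 75th percentile or none, quantile normalization, an offset of 64 before the log, array medians set equal, eBayes without the trend, a fit of only the groups compared, a replicate block, each array left out in turn, and all 3 control arrays that stood apart left out. WT and osnox2 plants shared pots, but the labels do not tie a replicate number to a pot, and the numbers were not used to pair arrays: residuals of the 18 same-numbered pairs correlated from -0.251 to 0.368, over 0.1 in 5. Python 3.11.15, numpy 2.4.6, pandas 2.3.3 and matplotlib 3.10.9 were used. No sequences are shown.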

Additional observations from a re-analysis of the deposited data

Results flagged for a closer look

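In 4 probe sets of 3 genes every drought array lay above the control mean in osnox2 and below it in WT. These genes came from the salicylate, MYB and phenylalanine ammonia-lyase lists. The share of all probe sets that meet this rule was not counted, so the pattern is given as a description only. The difference between the drought responses (osnox2 minus WT) was 3.19 and 2.41 for the 2 probe sets of PAL06, a phenylalanine ammonia-lyase gene, 0.56 for GAMYB and 0.54 for NH1. None of the 4 passed limma's test of that difference (adjusted p = 0.986 for each). Control arrays of PAL06 on the probe set at 3.19 ranged from 5.44 to 9.99 in WT and from 4.44 to 7.56 in osnox2, wider than the drought arrays of either genotype. Without the 3 control arrays that stood apart the differences were 4.06 and 2.70 for PAL06, 0.24 for GAMYB and 0.61 for NH1, and the drought difference of GAMYB in osnox2 turned from 0.26 to -0.13.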

How the results depend on the processing

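The 7 probe sets of the 4 genes kept a drought difference above 0 in 96 of 98 alternatives, the exceptions being Pir7b in WT at -0.20 without the 3 arrays and without WT control replicate 1. Of their 245 alternative differences 234 moved by less than 1 SD between replicates and 10 by more. Changing the filter, the trend, the groups fitted or the block cannot move a difference of group means. The genes were also chosen on their drought differences, so nothing is read from these counts. The difference between responses of WRKY62 reversed to -0.79 without the 3 arrays. JAMYB in osnox2 drought moved to 1.62 with an offset of 64 and without the 3 arrays, where NH3 on its brightest probe set moved to 0.88 and WRKY62 to 0.99. Counts of calls over all probe sets depended on the setting. Drought in WT gave 42, with 25 without a filter, 66 after quantile normalization, 11 without the intensity trend, 2 with only the groups compared, 18 with a replicate block and 950 without the 3 arrays. Drought in osnox2 gave 170, with 102, 77, 5, 93 and 462 for no filter, no trend, only the groups compared, the replicate block and without the 3 arrays. The genotypes under control gave 42, with 21 at the 75th percentile filter, 15 with only the groups compared, 17 with the replicate block and 88 without the 3 arrays. Under drought they gave 33, with 17 at that filter, 50 with the offset, 80 with only the groups compared and 189 without the 3 arrays. The difference between responses gave 0, and 8 without the 3 arrays. Leaving out single arrays gave 2 to 197, 7 to 5505, 13 to 1249, 13 to 58 and 0 to 46 in that order. The highest counts but the fourth came without osnox2 control replicate 3, which leaves only osnox2 control arrays that stood apart. The fourth came without WT control replicate 1. Defence list genes called for drought in osnox2 were 0, with 2 at the 75th percentile filter, 1 each with the offset, quantile normalization, centring, only the groups compared and the replicate block, 7 without the 3 arrays and 0 to 35 without single arrays (35 without osnox2 control replicate 3 and 11 without WT control replicate 1). For the genotypes under control they were 1, with 0 without the trend, with only the groups compared and with the replicate block, 2 without the 3 arrays and 0 to 4 without single arrays. For drought in WT they were 0, and 3 without the 3 arrays. For the genotypes under drought they were 0, and 1 with only the groups compared and without the 3 arrays. The cause of these moves was not tested. The labels do not say whether a replicate number marks a shared pot. The arrays were not treated as pairs, and 6 of 12 arrays correlated best with their own number. With only 3 numbers to match, that count cannot decide whether a number marks a pot. Blocking on the numbers cannot move a difference of group means, since every group holds the same 3 numbers. It does change the estimated spread. With it, calls went from 42 to 18 for drought in WT and from 170 to 93 in osnox2. Whether a number marks a pot was not tested. No detection calls were used, so faint probe sets carry no call of presence.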
